A study of Mus musculus with 30 samples.

Results

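Gene expression was compared between the left ventricles of 7 mice that received Aβ42 and 7 mice that received its scrambled control, ScrAβ42. These 14 hearts were all of the labelled peptide samples among the 30 samples of the series, and the other 16 belonged to an antibody study that was not analysed here. All mice were male and wild type, of the C57BL6 strain (C57BL6J in the treatment label), and each library carried the number of 1 mouse. Each mouse received a daily intraperitoneal injection of recombinant human Aβ42, or of the same residues in scrambled order, for 4 weeks, from 12 weeks of age by the labels and from an age range that ends there by the methods of the study, so the control mice also received daily injections. The labels give the daily dose as 1 mg, whereas the methods of the study give it in µg, and the dose was therefore not settled here. The peptide was of human sequence and given to mice that carried no transgene. The methods of the study describe a cohort killed immediately after a fast and a glucose tolerance test. Another cohort was killed days after echocardiography under anaesthesia. Which of them gave these hearts was not settled here. Total RNA was sequenced with a stranded kit and counted per gene. Of the 49671 genes in the table, the 11985 with a mean of at least 10 counts over the 14 hearts were tested. Hearts are named by their labels, which hold the mouse number. The numbers of the groups lay in separate ranges, from ScrAbeta42_3441 to ScrAbeta42_3449 and from Abeta42_3451 to Abeta42_3460, so anything that followed the numbers, such as cage or order of dissection, cannot be told apart from the peptide.

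Amyloid β peptides are cut from the amyloid precursor protein by β-secretase and γ-secretase. The longer Aβ42 aggregates readily and is best known from the plaques of Alzheimer's disease, but it also circulates in plasma and reaches peripheral organs. The left ventricle is made mostly of cardiomyocytes by mass, which draw their energy from fatty acids and glucose, and it also holds fibroblasts, endothelial cells, mural cells and macrophages. Cardiomyocytes respond within minutes to stretch, neurohormones and stress through immediate early genes such as Jun, and over days through stress genes such as Nppa and Myh7.

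The hearts were sequenced to similar depth, from 4478991 to 6015767 counts, with 12.9% to 22.2% of the counts on mitochondrial genes. Ventricular markers were high in every heart. Their summed level, in CPM (counts relative to library size, after TMM scaling), was 40512 to 76813 CPM in the Aβ42 hearts and 51443 to 85290 CPM in the ScrAβ42 hearts. Atrial markers, which a ventricular sample should largely lack, were not uniformly low. The sum of Sln, Myl7, Myl4, Bmp10 and Mybphl ran from 12.4 to 8417 CPM in the Aβ42 hearts, with a median of 1158, and from 3.82 to 3665 CPM in the ScrAβ42 hearts, with a median of 10.5. It reached 1158 CPM or more in 4 Aβ42 hearts (mice Abeta42_3451, Abeta42_3455, Abeta42_3457 and Abeta42_3458) and in 1 ScrAβ42 heart (mouse ScrAbeta42_3448), and was 158 CPM or less in the other 9. Comparisons are therefore also given within the 3 Aβ42 and 6 ScrAβ42 hearts under 200 CPM, termed the low-atrial hearts, and after adjusting for an atrial marker score, termed the atrial covariate. The low-atrial hearts were not free of the atrial difference. Mouse Abeta42_3460 was at 158 CPM of these markers against 3.82 to 31.8 CPM in the 6 ScrAβ42 hearts. All 4 atrial markers that could be tested there lay higher (median log2 fold change of 2.32, beside 2.31 in all hearts). Of these, 3 were at an unadjusted p under 0.05, beside 6.56% of all genes there.

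Whether any gene separated the peptides beyond the spread between hearts depended on the test. In edgeR's quasi-likelihood test, 0 of the 11985 genes (0%) passed an adjusted p of 0.05, and the smallest adjusted p was 0.091, reached by Sult1a1 and Pla2g4e. limma-voom also called 0 genes. At an unadjusted p under 0.05 there were 780 genes, which is 6.51% of those tested, where the threshold itself lets 5% pass. Of these, 430 (3.59%) were higher and 350 (2.92%) were lower with Aβ42. The log2 fold changes, given throughout as Aβ42 minus ScrAβ42, had a median of 0.0015 over all genes, with the 5th percentile at −0.26 and the 95th at 0.42, and 50.5% of genes lay above 0. For 9169 genes (76.5%) the 95% interval of the difference lay within 1.5-fold in either direction. DESeq2, which estimates the spread of each gene differently, called 12 genes at an adjusted p of 0.05 (0.100%), 5 higher (0.0417%) and 7 lower (0.0584%), among them the transcription factor gene Jun and Rgs2, a regulator of G protein signalling.

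**Figure D1:**
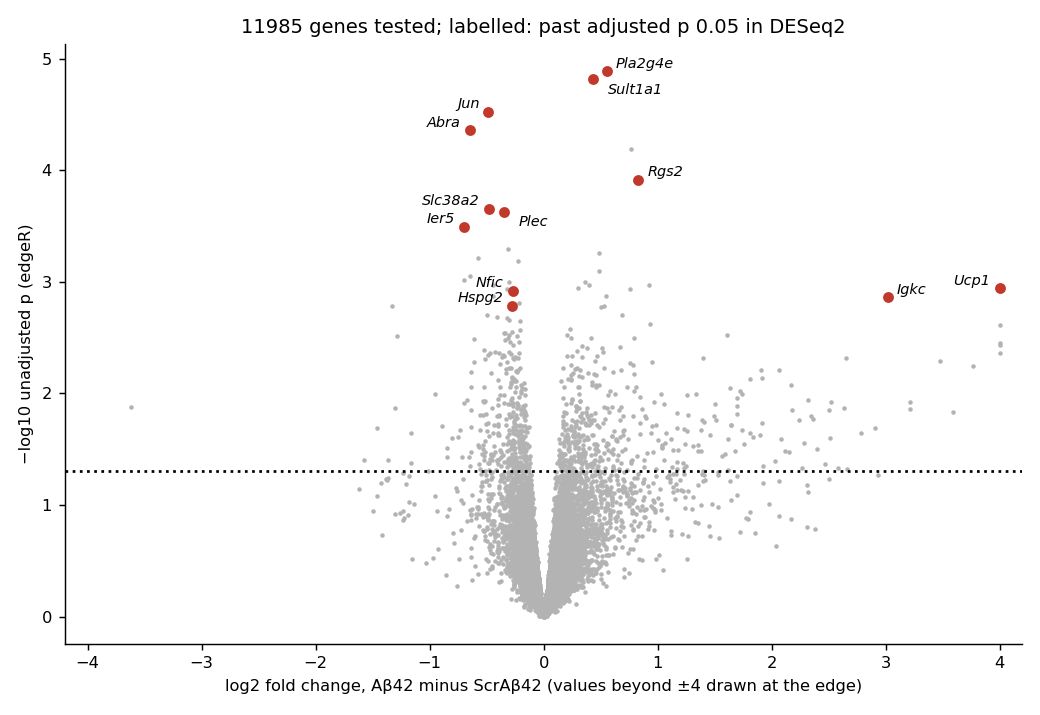
Log2 fold change (Aβ42 minus ScrAβ42) against the −log10 unadjusted p of edgeR for the 11985 genes tested, with 1 point per gene, the dotted line at p 0.05 and the 12 genes past an adjusted p of 0.05 in DESeq2 labelled in red. Most points lie close to 0 in both directions, and the labelled genes include small differences with a narrow spread, such as Plec, as well as Ucp1, which lies beyond the axis and is drawn at its edge.

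The 12 genes differed in how far their calls depended on single hearts. Sult1a1, Jun, Plec, Abra, Rgs2 and Slc38a2 stayed under an adjusted p of 0.05 in DESeq2 in all 14 fits that left out a single heart. The other 6 (Pla2g4e, Hspg2, Ucp1, Ier5, Igkc and Nfic) did not. Among the low-atrial hearts DESeq2 called 15 genes, of which 3 (Sult1a1, Jun and Plec) were among the 12. With the atrial covariate it called 12 genes, of which 4 (Sult1a1, Jun, Plec and Abra) were.

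RefSeq held a promoter entry for 4 of the 6 genes called in every fit that left out a heart. The 150 bases upstream of each start site (GRCm38.p6, all on the minus strand, written 5′ to 3′) are shown because DESeq2 called these genes whichever heart was left out, although the calls of Rgs2 and Slc38a2 were lost with the atrial covariate (adjusted p of 0.104 and 0.176) and in the low-atrial hearts. Capitals mark, on either strand, short forms of the boxes bound by NF-Y (CCAAT), by Sp1 (GGGCGG), by CREB and ATF (TGACG), by Jun with ATF2 (TGACATCA) and by MEF2 (TATTTTTA).
Sult1a1 chr7:126676419-126676568 (minus strand): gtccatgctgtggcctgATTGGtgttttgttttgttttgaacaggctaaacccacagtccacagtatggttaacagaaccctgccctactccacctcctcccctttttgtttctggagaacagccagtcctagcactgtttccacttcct
Jun chr4:95052223-95052372 (minus strand): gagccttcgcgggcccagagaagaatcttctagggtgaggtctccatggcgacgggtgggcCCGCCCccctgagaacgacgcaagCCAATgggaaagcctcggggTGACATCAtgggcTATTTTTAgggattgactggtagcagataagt
Rgs2 chr1:144004150-144004299 (minus strand): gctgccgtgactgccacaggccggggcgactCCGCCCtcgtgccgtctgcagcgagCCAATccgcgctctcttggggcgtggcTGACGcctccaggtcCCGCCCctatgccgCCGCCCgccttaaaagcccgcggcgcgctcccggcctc
Slc38a2 chr15:96699729-96699878 (minus strand): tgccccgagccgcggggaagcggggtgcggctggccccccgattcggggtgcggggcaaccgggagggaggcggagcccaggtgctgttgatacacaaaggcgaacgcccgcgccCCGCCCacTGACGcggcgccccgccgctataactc
The Jun window held TGACATCA 45 to 38 bases and TATTTTTA 32 to 25 bases before the start, besides a CCAAT at 65 to 61 and a GGGCGG on the opposite strand at 89 to 84. Of the 32851 windows of the same length, 2.32% held TGACATCA and 1.39% held TATTTTTA. The motifs were set by hand, so these shares do not test whether the Jun window is unusual. The Rgs2 window held a CCAAT at 94 to 90, a TGACG at 67 to 63 and 3 copies of GGGCGG on the opposite strand, the nearest at 38 to 33 bases. The Slc38a2 window held a TGACG at 27 to 23 and a GGGCGG on the opposite strand at 35 to 30, and the Sult1a1 window held only a CCAAT on the opposite strand at 133 to 129. The other motifs were common, with CCAAT in 24.5% of all windows, GGGCGG in 28.6% and TGACG in 13.3%. The GC content was 48.7% for Sult1a1, 58.0% for Jun and 74.7% for both Rgs2 and Slc38a2, beside a median of 54.0%. No motif was held by all 4 windows, and a match of letters does not show that a factor binds there.

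Among the genes that lay higher with Aβ42, Sult1a1 had the smallest adjusted p in DESeq2. It encodes a cytosolic sulfotransferase that conjugates phenols, and lies on chr7:126672865-126676432 (GRCm38). Its level was 68.0, 70.2 and 83.7 CPM (lowest, median and highest) in the Aβ42 hearts and 46.5, 57.8 and 58.9 CPM in the ScrAβ42 hearts. Every Aβ42 heart lay above every ScrAβ42 heart. The log2 fold change was 0.44 ± 0.071 (SE; 1.35-fold), with an adjusted p of 0.091 in edgeR and 0.000199 in DESeq2, and in the low-atrial hearts it was 0.49 (adjusted p of 0.019 in DESeq2).

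Rgs2 encodes a regulator of G protein signalling that speeds the switching off of Gαq, the protein through which angiotensin, endothelin and α1-adrenergic receptors act in the heart. It lies on chr1:143999338-144004161. Its level was 45.7, 93.7 and 101 CPM in the Aβ42 hearts and 34.9, 49.6 and 59.1 CPM in the ScrAβ42 hearts. Of the 7 Aβ42 hearts, 6 lay above every ScrAβ42 heart, and mouse Abeta42_3452 lay within the ScrAβ42 range. Its log2 fold change was 0.83 ± 0.163 (1.78-fold; adjusted p of 0.241 in edgeR and 0.0033 in DESeq2). Without mouse Abeta42_3452, the adjusted p of Rgs2 in edgeR was 0.0283. In the low-atrial hearts the difference was 0.68, with an unadjusted p of 0.00511, but the DESeq2 call was lost (adjusted p of 0.22).

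Pla2g4e, which encodes a cytosolic phospholipase of the group that makes N-acyl phosphatidylethanolamines, was expressed at a low level. It lies on chr2:120166412-120245335. Its level was 13, 15.0 and 15.6 CPM in the Aβ42 hearts against 8.84, 9.29 and 12.1 CPM in the ScrAβ42 hearts, and the groups did not overlap. The log2 fold change was 0.55 ± 0.089 (1.47-fold; adjusted p of 0.091 in edgeR and 0.0112 in DESeq2), and 0.63 in the low-atrial hearts. Leaving out mouse ScrAbeta42_3442 raised its adjusted p in DESeq2 to 0.0696, and without mouse ScrAbeta42_3448 it passed in edgeR, at an adjusted p of 0.0361.

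Of the genes that lay lower, Jun, the AP-1 subunit c-Jun, lies on chr4:95049034-95052222. Its level was 39.1, 43.7 and 54.0 CPM in the Aβ42 hearts and 56.1, 62.1 and 74.6 CPM in the ScrAβ42 hearts. The groups did not overlap. Its log2 fold change was −0.48 ± 0.083 (adjusted p of 0.119 in edgeR and 0.000436 in DESeq2). It was −0.52 in the low-atrial hearts, where the adjusted p in DESeq2 was 0.0361.

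Abra encodes STARS, an actin-binding protein that promotes transcription by SRF in striated muscle, and it lies on chr15:41864076-41869720. Its level was 50.5, 61.7 and 82.1 CPM in the Aβ42 hearts and 82.0, 89.8 and 120 CPM in the ScrAβ42 hearts. The groups met only at the highest Aβ42 heart, mouse Abeta42_3452, which reached the level of the lowest ScrAβ42 heart. The log2 fold change was −0.65 ± 0.115 (adjusted p of 0.131 in edgeR and 0.000466 in DESeq2). In the low-atrial hearts it was −0.49, with an adjusted p of 0.099 in DESeq2.

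Plec and Hspg2 both encode very large structural proteins. Plectin links intermediate filaments to the Z-disc and to the costamere, and perlecan, the product of Hspg2, is a heparan sulfate proteoglycan of basement membranes. Plec (chr15:76170974-76232574) was at 324, 386 and 398 CPM in the Aβ42 hearts and at 434, 462 and 542 CPM in the ScrAβ42 hearts, without overlap. Its log2 fold change was −0.34 ± 0.072 (adjusted p of 0.353 in edgeR and 0.000466 in DESeq2) and −0.35 in the low-atrial hearts. Hspg2 was at 521, 555 and 645 CPM against 628, 670 and 740 CPM, and only mouse Abeta42_3452 of the Aβ42 hearts reached the ScrAβ42 range. It differed on the log2 scale by −0.27 ± 0.072 (adjusted p of 0.0113 in DESeq2), and the call was lost when mouse Abeta42_3451, ScrAbeta42_3443 or ScrAbeta42_3447 was left out and in the low-atrial hearts (adjusted p of 0.512).

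Slc38a2 encodes SNAT2, a sodium-coupled carrier of neutral amino acids that cells induce when amino acids are scarce, and it lies on chr15:96687392-96699730. Its level was 207, 259 and 289 CPM in the Aβ42 hearts and 302, 345 and 433 CPM in the ScrAβ42 hearts, so the groups did not overlap. It differed on the log2 scale by −0.48 ± 0.101 (adjusted p of 0.353 in edgeR and 0.00453 in DESeq2) and −0.39 in the low-atrial hearts (adjusted p of 0.0861 in DESeq2).

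Ier5 and Nfic were the least stable of the 7 lower genes. Ier5, an immediate early gene whose product acts on the heat shock factor HSF1, was at 25.6, 30.7 and 49.0 CPM against 43.5, 52.7 and 72.0 CPM, and mouse Abeta42_3452 alone reached the ScrAβ42 range. It differed on the log2 scale by −0.70 ± 0.152 (adjusted p of 0.0186 in DESeq2), and it was called in 6 of the 14 fits that left out a heart, those without mouse Abeta42_3452, Abeta42_3455, Abeta42_3456, ScrAbeta42_3445, ScrAbeta42_3447 or ScrAbeta42_3448. Nfic, a transcription factor of the nuclear factor I family, was at 165, 182 and 208 CPM against 193, 220 and 244 CPM. Its log2 fold change was −0.27 ± 0.068 (adjusted p of 0.0305 in DESeq2), and it was called in 4 of those 14 fits, those without mouse Abeta42_3452, Abeta42_3455, ScrAbeta42_3441 or ScrAbeta42_3448.

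**Figure D2:**
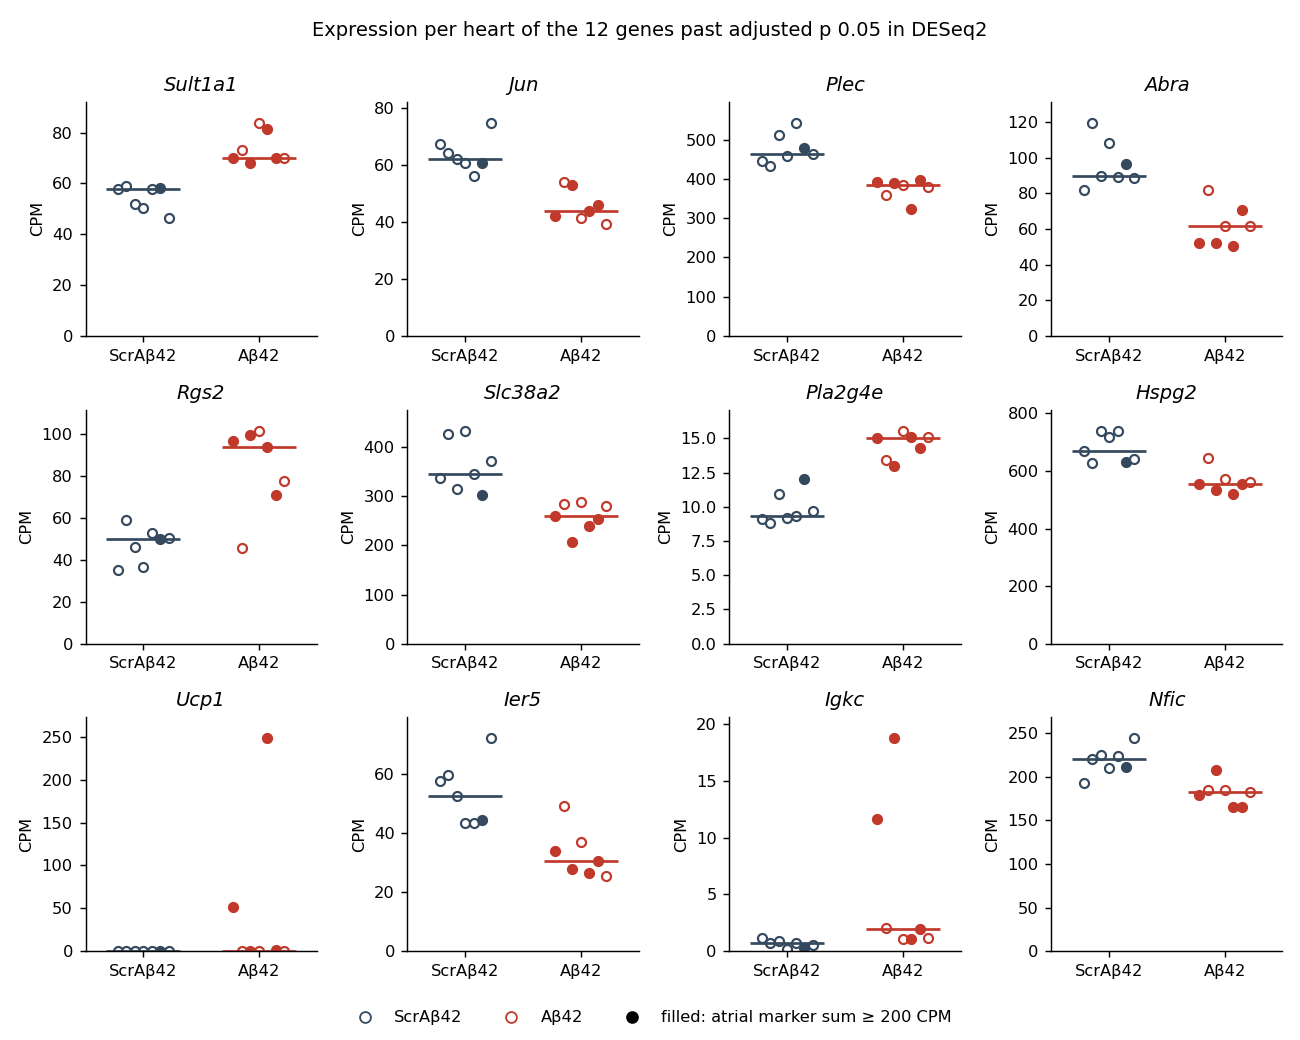
CPM per heart for the 12 genes past an adjusted p of 0.05 in DESeq2, with 1 point per heart, bars at the group medians and filled points for the 5 hearts with an atrial marker sum of at least 200 CPM. Sult1a1, Pla2g4e, Jun, Plec and Slc38a2 separate the groups in full, whereas Ucp1 and Igkc rest on 2 Aβ42 hearts each.

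The calls of Ucp1 and Igkc rested on 2 Aβ42 hearts each. Ucp1, the uncoupling protein of brown adipocytes, was at 248 CPM in mouse Abeta42_3457 and 52.1 CPM in mouse Abeta42_3451, at 1.35 CPM or less in the other Aβ42 hearts, and at 0.194 CPM or less in every ScrAβ42 heart. Its adjusted p in DESeq2 was 0.0155, and 0.922 with the atrial covariate, and the call was lost without mouse ScrAbeta42_3442 or ScrAbeta42_3443 (highest adjusted p of 0.0535). Without mouse Abeta42_3457 or Abeta42_3451, the hearts that carried it, DESeq2 gave Ucp1 no adjusted p. The summed adipocyte markers other than Ucp1 were highest in the same hearts, at 496 CPM in mouse Abeta42_3457 and 171 CPM in mouse Abeta42_3451, against 28.2 to 116 CPM in the ScrAβ42 hearts. Their part in the result was not tested. Igkc, an immunoglobulin light chain constant gene, was at 18.7 CPM in mouse Abeta42_3455 and 11.7 CPM in mouse Abeta42_3451, and at 2.07 CPM or less in the other 12 hearts. Its adjusted p in DESeq2 was 0.0209, and it was called in 6 of the 10 fits without a heart that gave it an adjusted p. Ighm, the heavy chain of immunoglobulin M, had a log2 fold change of 1.74 ± 0.595 in all hearts and of −0.17 in the low-atrial hearts. Of the 8 lymphocyte markers only Igkc and Ighm had enough counts to be tested, and reads of immunoglobulin genes can be split among similar segments, so these values are uncertain.

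Complete separation of the groups is a second way to rank genes, and it did not depend on the model. Among the 11985 genes some would separate by chance, and how many was not tested. In 7 genes (0.0584%) every Aβ42 heart lay above every ScrAβ42 heart, and in 4 (0.0334%) every one lay below, together 11 genes (0.0918%). The 7 were Sult1a1, Pla2g4e, Pms1, Abracl, Fam120b, Anp32a and Xpa, and the 4 were Jun, Slc38a2, Plec and Zfp651. The differences were mostly small. Pms1, a mismatch repair gene, was at 4.14, 4.39 and 5.33 CPM in the Aβ42 hearts and 1.97, 2.52 and 3.29 CPM in the ScrAβ42 hearts (log2 fold change of 0.76 ± 0.141, adjusted p of 0.154 in edgeR). Xpa, of nucleotide excision repair, was at 6.50, 6.71 and 10.3 CPM against 3.95, 5.42 and 6.37 CPM (0.43 ± 0.140). Abracl, which encodes a small protein of actin dynamics, had a log2 fold change of 0.49 in all hearts and of 0.25 in the low-atrial hearts. Fam120b, Anp32a and Zfp651 differed by 0.21, 0.17 and −0.20, and each of these differences was at least as large in the low-atrial hearts except that of Zfp651, which was −0.18 there. The low-atrial hearts are a part of the hearts that the groups were separated by, so the direction there was fixed by the choice of genes. With total counts in place of TMM scaling, only 2 genes were higher without overlap.

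The remaining genes with the smallest unadjusted p in each direction differed by 1.5-fold or less, apart from Ucp1, the locus 2810403D21Rik, which was 1.90-fold higher at a low level, Irs1, which was lower by 36.0%, and Habp2, which was lower by 38.4%. Higher with Aβ42 were Arl4d, an Arf-like GTPase (0.48 ± 0.117), Vamp1, a vesicle fusion protein (0.37 ± 0.091), and Acy3, an aminoacylase (0.40 ± 0.099), and 6 of the 7 Aβ42 hearts lay above every ScrAβ42 heart for each of them. Lower were Ncln, of the endoplasmic reticulum membrane (−0.31 ± 0.071), Zfp592, a zinc finger protein (−0.23 ± 0.053), Irs1 (−0.64 ± 0.157) and Habp2, a serine protease that binds hyaluronan (−0.70 ± 0.172), and 6 of the 7 Aβ42 hearts lay below every ScrAβ42 heart for each. None of these 7 genes passed an adjusted p of 0.05 in edgeR or DESeq2. Each kept its direction in the low-atrial hearts, where the log2 fold change was 0.32 for Arl4d, 0.40 for Acy3 and −0.65 for Irs1. The low-atrial hearts are among the hearts by which these genes were picked, so that direction was largely fixed by the choice.

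The comparison was then read across 25 lists of genes grouped by function, which together held 454 of the genes tested. Among them 15 (3.30%) were higher and 22 (4.85%) lower at an unadjusted p under 0.05 in edgeR, beside 3.59% and 2.92% of all genes. The medians of the lists ran from −0.12 (sarcomere genes) to 0.15 (integrated stress response genes), beside 0.0015 for all genes. Of these 37 genes, 18 kept the threshold and the direction in the low-atrial hearts, where 36 could be tested, and 20 did with the atrial covariate. Of all genes, 6.56% were under that threshold in the low-atrial hearts and 7.35% with the covariate. In 8 of the 25 lists the median did not change sign under any alternative.

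**Figure D3:**
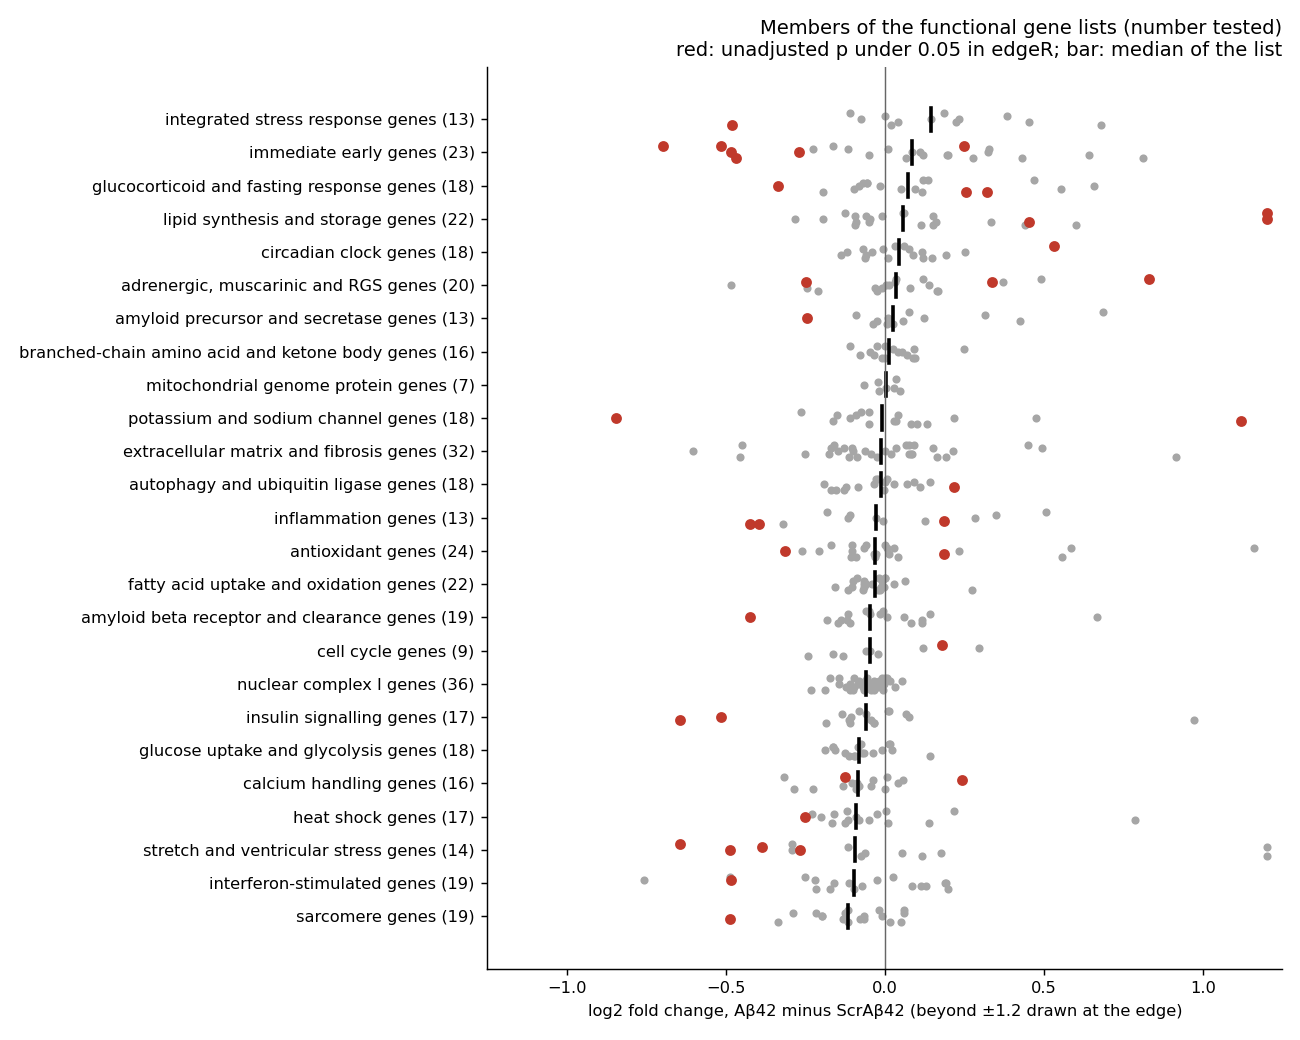
Log2 fold change (Aβ42 minus ScrAβ42) of each tested member of the 25 functional lists, with 1 point per gene, red for an unadjusted p under 0.05 in edgeR, a bar at the median of the list and values beyond 1.2 in either direction drawn at the edge. The medians all lie between −0.12 and 0.15, and the red points are spread over many lists rather than gathered in a single list.

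Immediate early genes hold the first wave of transcription after a stimulus. Of the 23 tested, 5 were lower and 1 higher at an unadjusted p under 0.05, beside 2.92% and 3.59% of all genes. Besides Jun and Ier5, the lower ones were Myc (−0.51 ± 0.220), Klf4 (−0.27 ± 0.110) and Ccn1 (−0.47 ± 0.207), and the higher one was Zfp36 (0.25 ± 0.116). Ccn1 and Zfp36 were named after their values were seen, to complete the count. Myc, the growth regulator, was at 4.54, 5.62 and 12.0 CPM in the Aβ42 hearts and 6.65, 8.74 and 13 CPM in the ScrAβ42 hearts, and the groups overlapped. Myc was at −0.22 (unadjusted p of 0.426) and Klf4 at −0.20 (unadjusted p of 0.184) in the low-atrial hearts. Of the 23 members 14 lay above 0 and 9 below. The median was 0.09 in all hearts, −0.01 in the low-atrial hearts and −0.07 with the atrial covariate. In the low-atrial hearts 5 of the 23 were under an unadjusted p of 0.05, beside 6.56% of all genes. With the atrial covariate 5 were, beside 7.35% of all genes.

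Stretch and ventricular stress genes respond to wall tension and to signals that drive hypertrophy. Of the 14 tested, 4 were lower and 0 higher at an unadjusted p under 0.05, beside 2.92% and 3.59% of all genes. There were 9 below 0, with a median of −0.10 (−0.11 in the low-atrial hearts). In the low-atrial hearts 5 of 13 were under that threshold, beside 6.56% of all genes. With the atrial covariate 3 were, beside 7.35% of all genes. Besides Abra, the 4 lower in all hearts were Myh7, Xirp1 and Rcan1. Myh7, the slow β-myosin heavy chain that rises in strained rodent ventricles, was at 326, 475 and 596 CPM in the Aβ42 hearts and 492, 641 and 816 CPM in the ScrAβ42 hearts. All 7 Aβ42 hearts lay below the ScrAβ42 median and 5 lay below every ScrAβ42 heart. The log2 fold change of Myh7 was −0.49 ± 0.147 (unadjusted p of 0.00449 in edgeR), and −0.39 in the low-atrial hearts. Xirp1, an actin-binding protein of the intercalated disc, differed by −0.39 ± 0.119 (−0.27 in the low-atrial hearts, unadjusted p of 0.0704), and Rcan1, an inhibitor of calcineurin that is itself a calcineurin target, by −0.27 ± 0.097 (−0.14 in the low-atrial hearts, unadjusted p of 0.212).

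The natriuretic peptide genes of the same list did not follow that direction. Nppb, which encodes BNP, was at 17.2, 61.1 and 143 CPM in the Aβ42 hearts and 34.7, 72.8 and 99.0 CPM in the ScrAβ42 hearts, with a log2 fold change of 0.18 ± 0.371 (unadjusted p of 0.643 in edgeR) that turned to −0.13 in the low-atrial hearts. Nppa, which encodes ANP and is much more active in atria, had a log2 fold change of 2.93 ± 1.40 (unadjusted p of 0.0536), of 1.36 in the low-atrial hearts (unadjusted p of 0.0197) and of 0.55 with the atrial covariate. Leaving out a single heart moved it from 2.18 (without mouse Abeta42_3457) to 6.24 (without mouse ScrAbeta42_3448). Its level moved with the atrial markers. The 5 hearts at or above 200 CPM of those markers were the 5 with Nppa at 617 CPM or more, and the other 9 were at 93.8 CPM or less. The highest of these 9 was mouse Abeta42_3460, which also had the highest atrial marker sum of the low-atrial hearts. The part of atrial tissue in the Nppa result was not tested beyond these values.

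Whether the mice were fasted or had received glucose before killing was not settled here. The glucocorticoid and fasting list reads corticosteroid action and nutrient shortage. Of its 18 members, 2 were higher and 1 lower at an unadjusted p under 0.05 in all 14 hearts, beside 3.59% and 2.92% of all genes. Fkbp5 (0.26 ± 0.113) and Mt1 (0.32 ± 0.119) were higher, and Zbtb16 (−0.33 ± 0.097) was lower. All 3 are induced by glucocorticoids. In the low-atrial hearts 9 of the 18 members were under that threshold (beside 6.56% of all genes there), 12 lay above 0 and the median was 0.11, beside 0.07 in all hearts. With the atrial covariate 2 were under it (beside 7.35% of all genes), and Fkbp5 was at 0.15 (unadjusted p of 0.215). Mt1, a zinc-binding metallothionein, was at 280, 334 and 426 CPM in the Aβ42 hearts and 196, 295 and 326 CPM in the ScrAβ42 hearts, with overlap, and its log2 fold change was 0.54 in the low-atrial hearts (unadjusted p of 0.000906). Of the 18 clock genes only Ciart, a repressor of the core clock, reached that threshold, at 14.1, 19.3 and 24.6 CPM against 9.20, 14.0 and 16.6 CPM (0.53 ± 0.140). The clock list had a median of 0.05, and 15 of its 18 intervals lay within 1.5-fold in either direction.

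In the lists of protein quality, redox and cell cycle genes, members under an unadjusted p of 0.05 (6.51% of all genes) lay in both directions. Among 17 heat shock genes 12 lay below 0 (median −0.09), and Hspa8, the constitutive HSC70 chaperone, was lower at an unadjusted p of 0.00976 (−0.25 ± 0.085, and −0.21 in the low-atrial hearts, unadjusted p of 0.0708). Of 13 tested genes of the integrated stress response, the program driven by ATF4, only Slc38a2 reached the threshold, while 10 lay above 0. Their median of 0.15 turned to −0.01 in the low-atrial hearts and to −0.14 with the atrial covariate. Of 24 antioxidant genes Gstm1, a glutathione transferase, was higher (0.19 ± 0.075) and Srxn1, which repairs oxidised peroxiredoxins, was lower (−0.31 ± 0.090, 6 of 7 Aβ42 hearts below every ScrAβ42 heart), but Srxn1 was at −0.19 in the low-atrial hearts (unadjusted p of 0.0783). In the low-atrial hearts 5 of the 24 antioxidant genes were under the threshold, beside 6.56% of all genes. With the atrial covariate 5 were, beside 7.35% of all genes. Among 18 genes of autophagy and ubiquitin ligases Atg5 was higher (0.22 ± 0.090), and 17 intervals lay within 1.5-fold. Of 9 tested cell cycle genes, Cdkn1b, an inhibitor of cyclin-dependent kinases, was higher (0.18 ± 0.075). Atg5 and Cdkn1b were at 0.15 and 0.16 in the low-atrial hearts, with unadjusted p of 0.291 and 0.152.

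In the insulin signalling list the adaptor genes lay lower. Irs1 and Irs2 encode the docking proteins that link the insulin receptor to PI3-kinase. Both were lower at an unadjusted p under 0.05, beside 2.92% of all genes. Of the 17 list members 12 lay below 0 (median −0.06). Irs1 was at 9.31, 10.8 and 19.1 CPM in the Aβ42 hearts and 14.7, 19.3 and 24.6 CPM in the ScrAβ42 hearts. Only mouse Abeta42_3456, at 19.1 CPM, reached the ScrAβ42 range. The unadjusted p of Irs1 was 0.000886 and its adjusted p 0.551 in edgeR. Irs2 was at 29.8, 39.5 and 53.8 CPM against 37.4, 53.6 and 88.7 CPM, with overlap (−0.52 ± 0.181). It was at −0.33 in the low-atrial hearts (unadjusted p of 0.0987 in edgeR) and at −0.28 with the atrial covariate (unadjusted p of 0.14).

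The enzymes that burn fuel were measured precisely and differed little. No gene of fatty acid uptake and oxidation (22 tested), glucose uptake and glycolysis (18), branched-chain amino acid and ketone use (16), or complex I (36) reached an unadjusted p under 0.05. All 22 intervals of the fatty acid list, 17 of 18 of the glycolysis list and 35 of 36 of complex I lay within 1.5-fold in either direction. The members with the smallest p in these lists included Cpt1a, the liver-type gate of fatty acid entry into mitochondria (0.27 ± 0.134), and Ndufa1, a small subunit of complex I (−0.19 ± 0.101). Of the 13 protein genes of the mitochondrial genome 7 passed the count minimum, 0 of them under that threshold, and all 7 intervals lay within 1.5-fold. The others, mt-Nd3, mt-Nd4l, mt-Co2, mt-Co3, mt-Atp6 and mt-Atp8, were under the minimum, although 12.9% to 22.2% of the counts lay on mitochondrial genes. The reason was not tested, so the values of the mitochondrial genome are uncertain. Slc2a1, the basal glucose carrier GLUT1, was at 17, 19 and 23.9 CPM against 12.8, 18.9 and 22.1 CPM (0.14 ± 0.120). Most members lay below 0, 18 of 22 for fatty acids, 14 of 18 for glycolysis and 31 of 36 for complex I, beside 49.5% of all genes. These directions were not stable. The medians of −0.03, −0.08 and −0.06 became 0.14, 0.07 and 0.06 in the low-atrial hearts, and 0.06, 0.01 and 0.01 when only mouse Abeta42_3457 was left out. All 16 members of the branched-chain amino acid and ketone list lay above 0 in the low-atrial hearts, where 4 were under an unadjusted p of 0.05 (median 0.14, and 6.56% of all genes under it), and with the atrial covariate, where 7 were (median 0.22, and 7.35% of all genes), beside 9 above 0 and a median of 0.01 in all hearts. The ventricular cardiomyocyte markers moved with the fuel lists, with a median of −0.14 in all hearts, 0.11 in the low-atrial hearts and 0.21 with the atrial covariate, where 7 of 8 lay above 0. Their part in these results was not tested.

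Among 22 genes of lipid synthesis and storage, Scd1, Scd4 and Elovl6, which desaturate or lengthen fatty acids, were higher at an unadjusted p under 0.05. Of all genes 3.59% were. In the low-atrial hearts 1 of 21 members was under that threshold, beside 6.56% of all genes. With the atrial covariate 0 were, beside 7.35% of all genes. Scd1 was at 12.0, 29.8 and 837 CPM in the Aβ42 hearts and 14.5, 17.7 and 118 CPM in the ScrAβ42 hearts. Its 2 highest hearts were mice Abeta42_3457 (837 CPM) and Abeta42_3451 (447 CPM), which also had the highest adipocyte marker sums. The log2 fold change of Scd1 was 2.29 ± 0.942 in all hearts, 1.24 without mouse Abeta42_3457, 0.10 with the atrial covariate and −1.0 in the low-atrial hearts. Elovl6 was likewise highest in mouse Abeta42_3457 at 21.8 CPM (2.32 ± 0.810, and 0.89 with the atrial covariate, at an unadjusted p of 0.359). Scd4, the heart-enriched desaturase, was at 40.1, 74.3 and 109 CPM against 36.9, 51.1 and 69.5 CPM (0.45 ± 0.192). It was at 0.21 in the low-atrial hearts (unadjusted p of 0.321 in edgeR) and at 0.13 with the atrial covariate (unadjusted p of 0.492).

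Contractile and electrical genes at an unadjusted p under 0.05 (6.51% of all genes) lay in both directions. Of 19 sarcomere genes only Myh7 reached that threshold in all hearts. In the low-atrial hearts 4 did, beside 6.56% of all genes, and with the atrial covariate 1 did, beside 7.35%. Although 15 lay below 0, the median of −0.12 became 0.02 in the low-atrial hearts and 0.06 with the atrial covariate. Myh6, the fast α-myosin heavy chain of the adult mouse heart, had a log2 fold change of −0.12 ± 0.134 and Myl2, the ventricular myosin light chain, of −0.20 ± 0.329, and these became −0.03 and 0.13 in the low-atrial hearts. Of 16 calcium handling genes Itpr2, the main inositol trisphosphate receptor of cardiomyocytes, was higher (0.24 ± 0.075, 6 of 7 Aβ42 hearts above every ScrAβ42 heart), and Atp2b1, a calcium pump of the plasma membrane, was lower (−0.12 ± 0.059). Among 18 ion channel genes Hcn4, the pacemaker channel, was at 1.51, 3.72 and 11.5 CPM against 5.5, 8.09 and 13.4 CPM (−0.85 ± 0.356, and −0.85 in the low-atrial hearts). Kcnj3, an atrial potassium channel subunit, was higher by 1.12 ± 0.454 in all hearts, and was at 0.65 without mouse Abeta42_3457 and at −0.10 in the low-atrial hearts.

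Receptor signalling gave differences in both directions. Of 20 genes of adrenergic, muscarinic and RGS signalling, 2 were higher, Rgs2 among them, and 1 was lower at an unadjusted p under 0.05. Of all genes 3.59% were higher and 2.92% lower. In the low-atrial hearts 5 of the 20 were under that threshold, beside 6.56% of all genes. With the atrial covariate 6 were, beside 7.35% of all genes. The median was 0.03 in all hearts, −0.03 in the low-atrial hearts and −0.01 with the covariate. Pde4d, a phosphodiesterase that degrades cAMP near β-adrenergic receptors and ryanodine receptors, was higher (0.34 ± 0.123, and 0.42 in the low-atrial hearts), and all 7 Aβ42 hearts lay above the ScrAβ42 median. Adra1b, an α1-adrenergic receptor coupled to Gαq, was lower (−0.25 ± 0.093, and −0.21 in the low-atrial hearts, unadjusted p of 0.135), and all 7 Aβ42 hearts lay below the ScrAβ42 median.

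Matrix and immune genes gave no shared direction in all 14 hearts. Of 32 genes of the extracellular matrix, 0 reached an unadjusted p under 0.05 in either direction, and 16 lay on each side of 0. Only 11 of the 32 intervals lay within 1.5-fold, and for the rest a larger difference is not excluded. With the atrial covariate the median was −0.36 and 11 members were under that threshold, beside 7.35% of all genes. In the low-atrial hearts the median was −0.16 and 6 of 31 members were, beside 6.56% of all genes. The fibroblast markers moved with them. Their median was 0.02 in all hearts, −0.55 with the atrial covariate, where all 8 lay below 0 and 5 were under the threshold, and −0.25 in the low-atrial hearts, where 7 of 8 lay below 0. Col6a3, a collagen VI chain, was at 14.6, 20.7 and 38 CPM against 21.1, 27.1 and 46.7 CPM, with a log2 fold change of −0.45 ± 0.218 in all hearts and −0.63 in the low-atrial hearts (unadjusted p of 0.00805). The summed fibroblast markers were 1670 to 5041 CPM in the Aβ42 hearts and 1787 to 6605 CPM in the ScrAβ42 hearts, highest in mouse ScrAbeta42_3448, and their part in the result was not tested. In bulk tissue, fewer cells of a type and less RNA per cell cannot be told apart.

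Of 13 tested inflammation genes Tlr4, the receptor of lipopolysaccharide that also binds aggregated peptides, was at 16.5, 19.1 and 23.2 CPM in the Aβ42 hearts and 19.1, 26.9 and 33.6 CPM in the ScrAβ42 hearts (−0.42 ± 0.127, and −0.44 in the low-atrial hearts). All 7 Aβ42 hearts lay below the ScrAβ42 median. Cxcl12, a chemokine of stromal cells, was lower by 0.40 on the log2 scale (−0.40 ± 0.157, and −0.25 in the low-atrial hearts and −0.15 with the atrial covariate, where the unadjusted p was 0.285), and Nfkbia, the inhibitor of NF-κB, was higher (0.19 ± 0.085, and 0.17 with the atrial covariate, unadjusted p of 0.117). The median of the inflammation list was −0.03 in all hearts, −0.09 in the low-atrial hearts and −0.18 with the atrial covariate, where 11 of 13 lay below 0. The macrophage markers moved with it, with a median of −0.06 in all hearts and −0.08 in the low-atrial hearts. With the covariate their median was −0.42 and all 7 tested lay below 0. Of these markers 5 were under an unadjusted p of 0.05 there, beside 7.35% of all genes. Their part in these results was not tested. The other 11 genes of that list of 24 were under the count minimum. Of 19 interferon-stimulated genes 12 lay below 0 (median −0.10), and Usp18, a negative regulator of the interferon receptor, was lower (−0.48 ± 0.193, and −0.20 in the low-atrial hearts, unadjusted p of 0.482). Isg15, the ubiquitin-like modifier that Usp18 removes, was at 1.38, 2.33 and 5.16 CPM against 1.42, 3.77 and 9.88 CPM (−0.76 ± 0.398, and −0.07 in the low-atrial hearts).

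Genes that make, bind or clear amyloid β were read beside the 6.51% of all genes under an unadjusted p of 0.05 in all 14 hearts. Of the 13 genes of the precursor family and its secretases, only Adam17, an α-secretase that also sheds tumour necrosis factor, was under an unadjusted p of 0.05, and it lay lower (−0.24 ± 0.080, and −0.17 in the low-atrial hearts, unadjusted p of 0.109). In that list 10 of 13 intervals lay within 1.5-fold in either direction. Of 19 tested genes of amyloid β receptors and clearance only Tlr4 was under the threshold, and 10 of 19 intervals lay within 1.5-fold. The median of that list was −0.05 in all hearts and −0.02 in the low-atrial hearts, where 2 of 19 were under the threshold, beside 6.56% of all genes. The median became −0.22 with the atrial covariate, where 14 of 19 lay below 0 and 4 were under the threshold, beside 7.35% of all genes.

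Fold changes over 2-fold were mostly upward. At an unadjusted p under 0.05, 98 of the 11985 genes tested were more than 2-fold higher with Aβ42 and 10 were more than 2-fold lower. The count minimum is a mean over all hearts, so a gene near 0 in most hearts can pass it through a few high ones, as Ucp1 did. These counts can therefore reflect single hearts. Of these 108 genes, 7 belonged to the marker lists of cell types and 3 to the functional lists. In the low-atrial hearts 61 could be tested, and of these 40 kept the direction and 7 kept the threshold as well. Of the 108, 94 kept the direction with the atrial covariate and 12 kept both. Bmp10, a ligand made by atrial myocytes, was at 1209 CPM in mouse Abeta42_3455, 62.5 CPM in mouse Abeta42_3460, 12.1 CPM in mouse Abeta42_3457, and at 0.58 CPM or less in the other Aβ42 hearts, against 8.04 CPM or less in the ScrAβ42 hearts. Unlike most of the 108 it kept the threshold, with a log2 fold change of 6.81 ± 1.89 (unadjusted p of 0.00242) in all hearts and of 5.63 (unadjusted p of 0.001) in the low-atrial hearts, where mouse Abeta42_3460 is 1 of the 3 Aβ42 hearts. With the atrial covariate, a score that includes Bmp10, it was 3.88 (unadjusted p of 0.0838), and it was 2.97 without mouse Abeta42_3455 and 8.78 without mouse ScrAbeta42_3448. The log2 fold changes of Sln, Myl4, Myl7 and Mybphl, all genes of atrial myocytes, were 2.31 ± 1.55, 2.38 ± 1.63, 2.04 ± 1.65 and 2.17 ± 1.37, none of them under an unadjusted p of 0.05. Single hearts moved the size of these values. Without mouse ScrAbeta42_3448 they were 8.57, 7.70, 7.54 and 7.27, and without mouse Abeta42_3457 they were 1.63, 1.68, 1.30 and 1.39. Cnn1, a smooth muscle calponin, reached 124 CPM in mouse Abeta42_3457 and was 13.2 CPM or less elsewhere (2.51 ± 1.01, and −1.22 in the low-atrial hearts). Mbp, of myelin, was higher by 1.31 ± 0.547 and was at −0.30 in the low-atrial hearts, and the adipocyte genes Plin1 (2.66 ± 1.24) and Cidea (0.54 ± 0.249) were highest in mouse Abeta42_3457 at 84.8 and 102 CPM. Without mouse Abeta42_3457 the log2 fold changes of Cnn1, Mbp, Plin1 and Cidea were 0.10, 0.84, 0.945 and 0.20. The adipocyte markers had a median of 2.02 in all hearts and 0.20 with the atrial covariate. In the low-atrial hearts only 3 could be tested, with a median of −4.67. Of these, 2 lay below 0 and 2 were under an unadjusted p of 0.05, beside 6.56% of all genes.

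**Figure D4:**
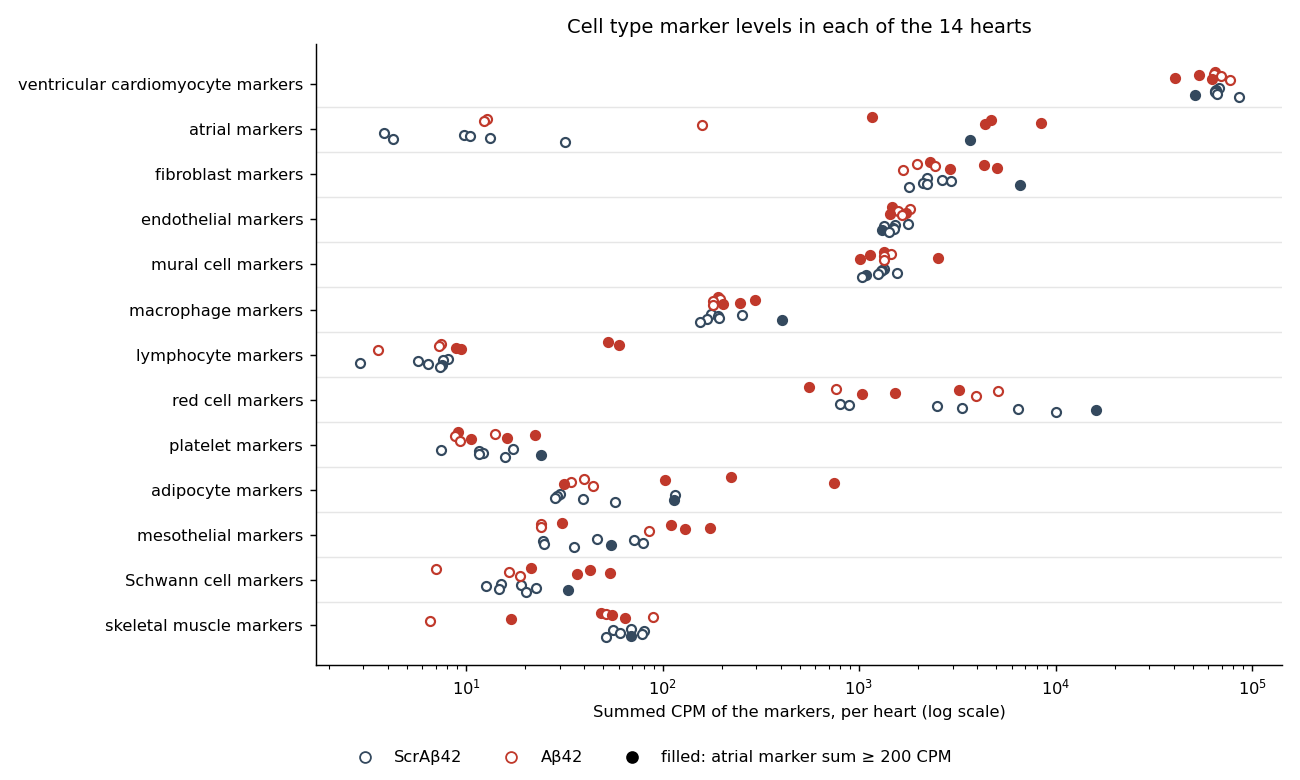
Summed CPM of the markers of 13 cell types on a log scale, with 1 point per heart, Aβ42 in red, ScrAβ42 in dark blue and filled points for the 5 hearts with an atrial marker sum of at least 200 CPM. The atrial sums span 3.82 to 8417 CPM and the red cell sums 558 to 15985 CPM, whereas the endothelial sums stay between 1311 and 1814 CPM.

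Blood and skeletal muscle markers also varied. The red cell sum was 558 to 5085 CPM in the Aβ42 hearts and 804 to 15985 CPM in the ScrAβ42 hearts. All 6 red cell genes had a log2 fold change below 0 (median −1.30, and −0.22 in the low-atrial hearts). Without mouse ScrAbeta42_3448 the median was −0.78. With the atrial covariate it was −1.45, and 3 of the genes were under an unadjusted p of 0.05, beside 7.35% of all genes. For Hbb-bs, the adult β-globin, the levels were 331, 849 and 2770 CPM against 431, 1846 and 9053 CPM (−1.37 ± 0.666, unadjusted p of 0.0572). Globin genes have near-identical copies among which reads can be split. Skeletal muscle markers summed to 6.55 to 89.5 CPM in the Aβ42 hearts and 51.5 to 80.4 CPM in the ScrAβ42 hearts, and 4 of the 7 Aβ42 hearts lay below every ScrAβ42 heart. Mesothelial markers summed to 24 to 174 CPM in the Aβ42 hearts and 24.5 to 79.6 CPM in the ScrAβ42 hearts, with 4 Aβ42 hearts above and 2 below every ScrAβ42 heart, and all 5 had a log2 fold change above 0 (median 0.79, and −0.36 in the low-atrial hearts). Platelet markers summed to 7.43 to 24.1 CPM, mural cell markers to 1012 to 2515 CPM, macrophage markers to 155 to 403 CPM and Schwann cell markers to 7.03 to 54.3 CPM over the 14 hearts.

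**Figure D5:**
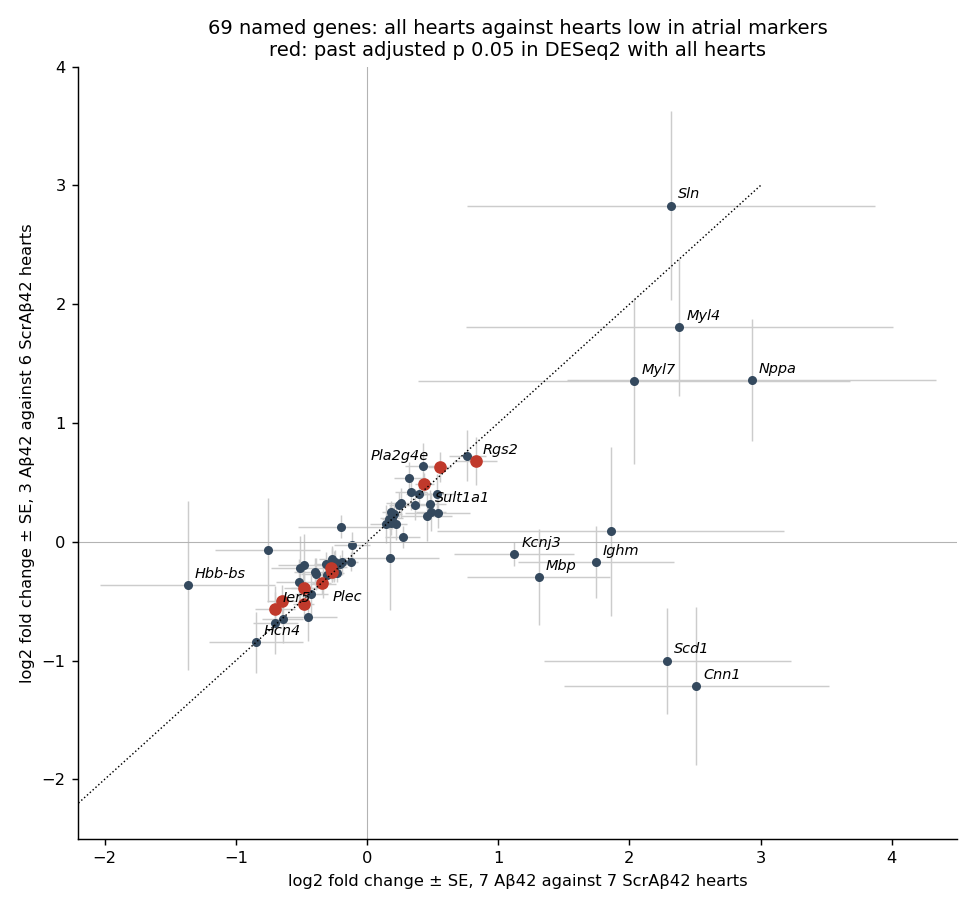
Log2 fold change ± SE of 69 named genes in all 14 hearts (x axis) against the 9 low-atrial hearts (y axis, 3 Aβ42 and 6 ScrAβ42, which are also among the 14), with the dotted line at equal values and the genes called by DESeq2 in red. Jun, Plec, Sult1a1, Pla2g4e and Rgs2 lie near the line, while Scd1 and Cnn1 change sign and Kcnj3, Mbp and Ighm drop to slightly below 0.

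The genes at an unadjusted p under 0.05 were also compared between all hearts and the low-atrial hearts. Of the 430 genes higher at an unadjusted p under 0.05 in all hearts, 97 kept that threshold and direction in the low-atrial hearts, and of the 350 lower genes 152 did. With the atrial covariate, 91 of the 430 and 153 of the 350 were under the threshold. In each of these settings a similar share of all genes was under the threshold, 6.56% in the low-atrial hearts and 7.35% with the covariate. The low-atrial hearts were chosen after their marker levels were seen, and with 3 Aβ42 hearts the comparison is less precise. They are also among the hearts by which the genes were picked, which by itself favours a kept direction.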

How the data were processed

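The authors sequenced total RNA of each left ventricle and mapped the reads to the mouse transcriptome of GENCODE (GRCm38) with Salmon. They deposited whole-number counts per gene, not normalized, and how transcripts were summed to genes is not given in the sources used here. Column names were matched to the mouse numbers of the labels, and 1 count column that matched no labelled mouse was not used. Gene positions and symbols were taken from GENCODE M21 (GRCm38), which lists 99.48% of the genes.

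Genes averaging 10 counts or more were tested in edgeR 4.0.16 (R 4.3.3; TMM scaling, quasi-likelihood test, two-sided) without covariates, and p-values were adjusted by Benjamini-Hochberg over all genes tested. CPM and log2 fold changes were computed here from the deposited counts. DESeq2 1.42.0, limma-voom (limma 3.58.1), other scalings and count filters, an atrial marker score (the mean z-score of the 5 atrial markers) and a surrogate variable (sva 3.50.0) as covariates, and the omission of each heart were alternatives. DESeq2 replaced outlying counts in 20 genes, 0 of which it called. The fit was tested on simulated counts, the outcome of which is not given here. Each library came from its own mouse, so p-values measure the spread between mice, and the counts bound the precision of low genes. Within the groups, the counts of no pair of hearts agreed within sampling noise (lowest chi-square per degree of freedom 3.49).

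The comparison and the gene lists were chosen with earlier results of these data known. The genes named were those called by either tool, the 10 with the smallest p in each direction, those without overlap between groups, up to 4 members of each list with the smallest p together with its most abundant member, the cardiac stress, myosin and atrial genes, and the 10 with the largest spread. Not every gene that this rule gives is named. Promoter sequences came from RefSeq (GRCm38.p6).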

Additional observations from a re-analysis of the deposited data

Results flagged for a closer look

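In 29 of 186 groups of 7 values examined (15.6%), 1 heart stood apart from the other 6 by Dixon's criterion, where chance gives about 5% for independent values. The values are not independent, since many belong to the same hearts. The genes examined also included those named for their large spread or small p, so the share cannot be set against 5%.

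Mouse Abeta42_3457, given Aβ42, stood apart in its group for Ucp1 (248 CPM), Elovl6 (21.8 CPM), Cnn1 (124 CPM), Plin1 (84.8 CPM), Cidea (102 CPM), Kcnj3 (366 CPM) and Cyp2e1 (178 CPM), and for the summed markers of adipocytes (744 CPM) and mural cells (2515 CPM). Mouse Abeta42_3455 stood apart for Bmp10 (1209 CPM). Mouse Abeta42_3452 stood apart at the upper end for Hspg2 (645 CPM), Myc (12.0 CPM), Ccn1 (90.8 CPM) and Xpa (10.3 CPM), and it was also the Aβ42 heart nearest to the controls for Rgs2, Abra and Ier5.

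Mouse ScrAbeta42_3448 was the ScrAβ42 heart with atrial transcripts. It stood apart for Nppa (1264 CPM), Kcnj3 (136 CPM), Bmp10 (8.04 CPM), Sln (443 CPM), Myl7 (1498 CPM), Myl4 (1515 CPM), Mybphl (201 CPM), Fgf12 (36.3 CPM), Cilp2 (42.5 CPM) and Dkk3 (470 CPM), and for the summed markers of atrial myocytes (3665 CPM), fibroblasts (6605 CPM) and macrophages (403 CPM). In other ScrAβ42 hearts, Myh6 was highest at 44473 CPM and Itpr2 lowest at 24.6 CPM. What set these hearts apart was not tested.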

How the results depend on the processing

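The count of genes past an adjusted p of 0.05 was 0 with edgeR under each scaling, filter and covariate tried, with limma-voom and in the low-atrial hearts, and 12 with DESeq2. Leaving out 1 heart gave 0 to 3 in edgeR (3 without mouse Abeta42_3452, 1 without mouse ScrAbeta42_3448) and 7 to 71 in DESeq2 (71 without mouse ScrAbeta42_3448). With no count filter 897 genes were higher and 578 lower at an unadjusted p under 0.05. There were 579 lower genes with the atrial covariate and 658 with the surrogate variable, and without 1 heart 257 to 794 higher (257 without mouse Abeta42_3457, 794 without mouse ScrAbeta42_3448) and 280 to 472 lower. Genes without overlap numbered 2 higher with total count scaling, 8 to 18 higher and 7 to 23 lower without 1 heart, and 189 higher and 184 lower in the low-atrial hearts, where fewer hearts separate more easily. The low-atrial hearts and every alternative of the DESeq2 count were added after seeing the data.

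The alternatives reused the hearts by which many genes were named, which by itself favours a kept direction. Of 80 named genes 69 kept their direction in every alternative, and 24 of 1814 pairs of gene and alternative reversed. With the atrial covariate these were Nppb (−0.07), Kcnj3 (−0.10), Cnn1 (−0.41), Mbp (−0.17), Myl7 (−0.033), Myl2 (0.21), Myh6 (0.012), Dkk3 (−0.76) and Cyp2e1 (−1.45). With the surrogate variable they were Nppb (−0.022), Cnn1 (−0.19), Myl2 (0.053) and Cyp2e1 (−0.50). In the low-atrial hearts they were Nppb (−0.13), Scd1 (−1.0), Kcnj3 (−0.10), Cnn1 (−1.22), Mbp (−0.30), Ighm (−0.17), Myl2 (0.13) and Cyp2e1 (−4.48). Nppb also reversed with limma-voom (−0.021), and ran from −0.053 (without mouse Abeta42_3458) to 0.35 without 1 heart, and Cyp2e1 from −0.10 (without mouse Abeta42_3457) to 2.07 (without mouse ScrAbeta42_3448). The cause was not tested. The filter of 10 counts in every heart left no gene of the atrial and skeletal muscle lists to summarise. No paired analysis was possible because the groups share no mouse numbers. Depth limits the scarce genes, and the SE of the log2 fold change had a median of 0.13 and a 95th percentile of 0.36.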

Other observations

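The 10 genes with the largest spread over the 14 hearts, among those with a mean of at least 10 CPM, were Sln, Myl7, Myl4, Mybphl, Nppa, Bmp10, Dkk3, Fgf12, Cilp2 and Cyp2e1. Their standard deviations of log2 CPM ran from 4.20 for Sln to 2.98 for Cyp2e1. Dkk3, a secreted protein of the Dickkopf family, was at 3.93, 84.3 and 851 CPM (lowest, median and highest) in the Aβ42 hearts and 2.71, 4.67 and 470 CPM in the ScrAβ42 hearts. Its log2 fold change was 1.86 ± 1.32, and 0.09 in the low-atrial hearts, and it was 1.22 without mouse Abeta42_3457 and 5.06 without mouse ScrAbeta42_3448. Fgf12, an intracellular partner of sodium channels, was at 0, 17.2 and 106 CPM against 0, 0.194 and 36.3 CPM, and Cilp2, a matrix protein, at 0, 15.2 and 116 CPM against 0, 0.239 and 42.5 CPM. Cyp2e1, a cytochrome P450 abundant in liver and fat, was at 0.198, 1.93 and 178 CPM against 0, 2.40 and 58.0 CPM.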
